A study of Mus musculus with 25 samples.

Results

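The genes described are the 3 pocket proteins, Rb1, Rbl1 (p107) and Rbl2 (p130), and 7 genes of the DREAM/MuvB complexes, Lin9, Lin37, Lin52, Lin54, Rbbp4, Mybl2 (B-MYB) and Foxm1. They were chosen by symbol, and all 10 were listed in both expression tables, among 15315 genes in the long-term table and 14007 in the short-term table. RNA-seq was done on pituitaries and pituitary tumors of shRB mice, which carry rtTA at Rosa26 and, at Col1a1, a doxycycline (dox) controlled miR-E shRNA against Rb that is linked to GFP. All 25 mice carried both alleles and had been given dox in drinking water as young adults, so there were no mice without the shRNA and none that had never received dox. The shRNA is a single hairpin in mice from a single ES cell clone, and rtTA from Rosa26 is active in most tissues, so knock-down was not limited to the pituitary.

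In the long-term experiment, 3 mice had 6 weeks of dox (6w+dox, all female), 4 had 12 weeks (12w+dox, 2 females and 2 males) and 5 had 6 weeks of dox followed by 6 weeks without it (12w-res, 3 females and 2 males). In the short-term experiment, 3 males had 16 weeks of dox (16w +dox), and dox was then withdrawn for 1 day in 4 females (1d -dox), 3 days in 3 males (3d -dox) and 5 days in 3 females (5d -dox). Levels are in FPM, the reads of a gene divided by the library size after scaling by size factors. The long-term libraries were enriched for poly(A) and the short-term libraries were depleted of ribosomal RNA, so FPM are not compared between the experiments.

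RB, p107 and p130 bind E2F transcription factors and hold back genes needed for cell division until cyclin-dependent kinases phosphorylate them. In resting cells p130 or p107 joins E2F4 or E2F5, a DP partner and the MuvB core (LIN9, LIN37, LIN52, LIN54 and RBBP4) to form DREAM, which represses cell cycle genes. In dividing cells the MuvB core changes partner to B-MYB and then FOXM1 and takes part in switching on genes of late S phase and mitosis. Mice that lose RB are known to develop pituitary tumors, which arise mainly from melanotrophs of the intermediate lobe.

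The site in Rb that the shRNA was designed against is shown because it identifies the transcript that the hairpin was meant to target. This site matched a single gene in full among the annotated mouse transcripts, and capitals mark the matched bases.
shRb5 target: GAGGAGTTTGATTCCATTATA
The site lies at chr14:73206076-73206096 on the minus strand (GRCm38, GENCODE vM21), in exon 22 of 27 and within the coding sequence of Rb1, at bases 2399 to 2419 of its transcript. The closest 21-base stretch in the transcript of Rbl1 had 6 mismatches and that of Rbl2 had 8. Among the other 7 genes the fewest mismatches ranged from 5 in Lin9 to 9 in Lin37 and Lin52. Mismatches were counted over all 21 bases and shorter matches were not searched. Effects of the hairpin on genes other than Rb1 were not tested, and the paper does not exclude them.

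Of the promoter windows of RefSeq (GRCm38.p6, 250 bases before to 50 after a start site), 7 of the 10 genes were matched, without Rb1, Lin9 and Foxm1. Stretches of the promoters of Rbl1 and Mybl2 are shown because these were the matched genes with the largest changes, and capitals mark E2F-type letters. The first stretch is chr2:157204525-157204571 on the minus strand and the second is chr2:163054600-163054646 on the plus strand.
Rbl1: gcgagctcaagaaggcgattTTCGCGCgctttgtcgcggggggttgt
Mybl2: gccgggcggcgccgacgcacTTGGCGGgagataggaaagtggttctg
In Rbl1 the letters begin 17 bases before the start site, and in Mybl2 they begin 15 bases before it. Start sites here are those of the windows. For Mybl2, Lin37 and 1 window of Lin54 they lie inside the gene positions given below and not at the first base. On both strands, the E2F core (TTNNCGC with a C or a G at each N) was held by 9.57% of 32851 promoter windows, and the form ending in G, as in Mybl2, by 10.1%. Rbbp4 held the E2F core 12 and 15 bases before its start site in matches that overlap each other on opposite strands, and Lin52 held it 26 bases before. The form ending in G was also found in Lin37, 17 bases after its start site and with the same letters as in Mybl2 on the other strand, and in 1 of 2 windows of Lin54, 154 bases before the start site. The E2F core was thus absent from the windows of Mybl2, Lin37, Lin54 and Rbl2. Rbl2 was the matched gene with neither form, where 17.8% of all windows held either form. Lin37, which holds one, did not pass in the comparison of 12w-res with 12w+dox described next. The form ending in G was chosen after values were seen, and a link between these letters and the changes was not tested. The CHR element (TTTGAA and, as its variant, TTCGAA, on either strand), which LIN54 is known to bind, was held by 19.2% of windows and was found in those of Rbl2, Lin37 and Lin54, and not in those of Rbl1 and Mybl2. These are matches of letters and not measured binding sites.

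Reads on genes numbered 19066053 to 28968476 per mouse in the long-term and 9573101 to 13036900 in the short-term experiment. Melanotroph and corticotroph markers (Pomc, Pcsk1, Pcsk2, Tbx19 and Pax7) were all listed in both tables, and none was at 0 throughout a group. The whole gland or tumor was sequenced, so that fewer cells of a type and less RNA per cell cannot be told apart. Neither the labels nor the tables name a batch. The p-values rest on the spread between the mice of a group, moderated by a variance trend over all genes. Each gene was tested with limma on log2(FPM + 0.5) over all mice of its experiment, and "passing" means a Benjamini-Hochberg adjusted p under 0.05 over all genes tested.

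After 6 weeks without dox, 8 of the 10 genes had changed against 12w+dox, 1 upward and 7 downward, where 37.8% of all 15315 genes passed in either direction and 18.3% passed downward. Rb1 rose, while Foxm1, Mybl2, Rbl1 and Lin9 fell by more than 1 on the log2 scale and Rbbp4, Lin54 and Lin52 fell by less. With an absolute log2 fold change over 1 as a second condition, 5 of the 10 genes and 11.3% of all genes passed. The values of the 8 passing genes did not overlap between the groups, as in 34.5% of all genes. The median log2 fold change was -0.48 over the 10 genes and -0.0040 over all genes.

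**Figure D1:**
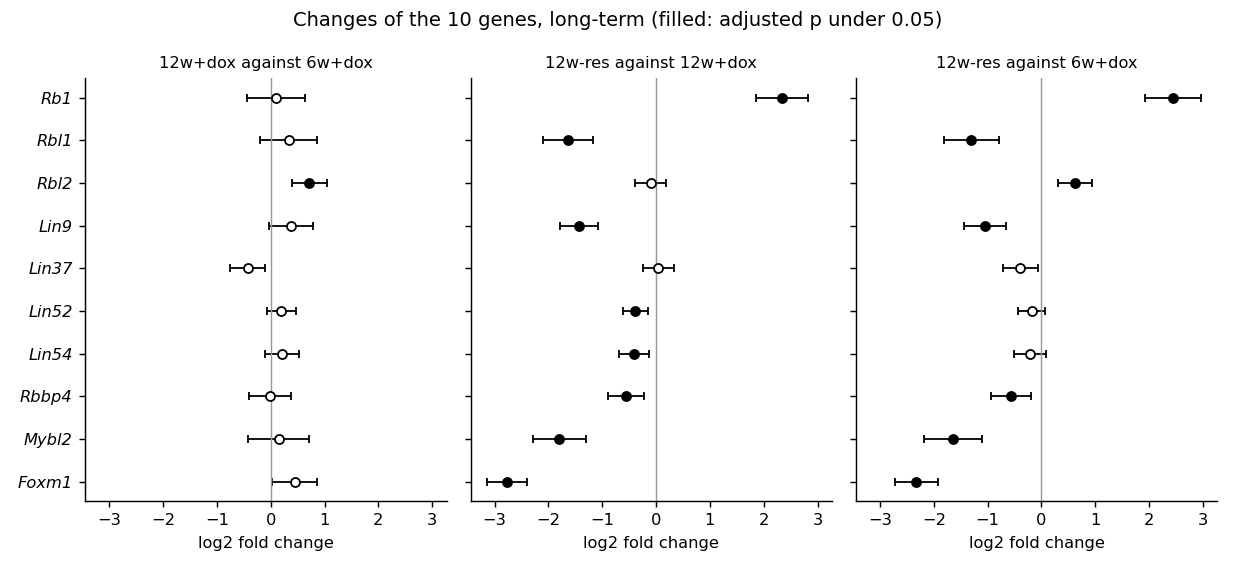
Log2 fold changes (x axis) of the 10 genes (y axis) in the 3 long-term comparisons, with points for limma estimates, bars for 95% confidence intervals and filled points for an adjusted p under 0.05. The largest changes in 12w-res against 12w+dox were 2.35 for Rb1 and -2.77 for Foxm1, and the interval of Rbl2 included 0 in that comparison.

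Rb1 (chromosome 14, 73192858 to 73325951, minus strand), the target of the shRNA, was measured first as a check of the labels. In the dox-treated mice its level was 1.86, 2.54 and 5.09 FPM at 6w+dox and 3.45, 2.42, 2.93 and 4.05 FPM at 12w+dox, from 32 to 145 reads per mouse. In 12w-res it was 16.1, 17, 20.3, 19.2 and 18.2 FPM, so every mouse off dox was above every mouse on dox. The mean of 18.2 ± 1.66 FPM in 12w-res (SD, n = 5) compares with 3.21 ± 0.70 FPM at 12w+dox (n = 4), a ratio of 5.66. The log2 fold change was 2.35 (SE, the standard error, 0.22, adjusted p = 3.0e-06, limma). The same mice gave p = 0.0159 in an exact two-sided permutation test, the smallest that 5 against 4 mice allow. Against 6w+dox the log2 fold change was 2.44 (adjusted p = 5.6e-06, limma), and between 12w+dox and 6w+dox it was 0.097 (95% interval -0.45 to 0.64). Exons of Rcbtb2 on the opposite strand overlap 2.26% of the Rb1 transcript, and Rcbtb2 averaged 25.9, 32.5 and 28.8 FPM at 6w+dox, 12w+dox and 12w-res. The sources used here do not say whether strand was used in counting.

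Rbl1 (chromosome 2, 157145893 to 157204534, minus strand) encodes p107, which binds mainly E2F4 and is itself a known E2F target. Its level was 22.6, 20.9, 28.1 and 22.6 FPM at 12w+dox and 7.33, 7.50, 6.96, 6.20 and 8.07 FPM in 12w-res, with no overlap between the groups. The mean was 3.27 times lower in 12w-res, with a log2 fold change of -1.64 (SE 0.22, adjusted p = 6.7e-05, limma). At 6w+dox the 3 mice spread widely, at 11.4, 17.5 and 31.3 FPM, and all of them still lay above the 12w-res mice. The log2 fold change of 12w-res against 6w+dox was -1.30 (adjusted p = 9.1e-04, limma). Between 12w+dox and 6w+dox, Rbl1 did not pass, at 0.34 (95% interval -0.20 to 0.87). That value rested on single mice, since it was 0.71 (adjusted p = 0.0125, limma) without 6w+dox replicate 3 and 0.00046 without 6w+dox replicate 1.

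Rbl2 (chromosome 8, 91070057 to 91123844, plus strand) encodes p130, the pocket protein best known from DREAM in resting cells. It measured 18.5, 22.8 and 29.2 FPM at 6w+dox, 42.8, 40.6, 33.4 and 37.1 FPM at 12w+dox and 30.2, 37.5, 36.6, 37.1 and 38.2 FPM in 12w-res. Both 12-week groups were above all 6w+dox mice and overlapped each other. It was the only one of the 10 genes that passed between 12w+dox and 6w+dox, with a log2 fold change of 0.72 (SE 0.15, adjusted p = 0.0057, limma), where 22.4% of all genes passed and 7.20% passed with an absolute log2 fold change over 1. Against 6w+dox it was also higher in 12w-res (0.62, adjusted p = 0.0049, limma), though under scaling by total reads this was 0.30 and did not pass (adjusted p = 0.273). Between 12w-res and 12w+dox the log2 fold change was -0.097 (95% interval -0.38 to 0.19), which became -0.75 and passed (adjusted p = 0.0037) under scaling by total reads, where the median of all genes shifted by -0.61. Exons of Aktip and Gm45464 on the opposite strand overlap 16.8% of the Rbl2 transcript, and Aktip averaged 29.8, 40.6 and 37.6 FPM at 6w+dox, 12w+dox and 12w-res. The part of Aktip in the Rbl2 values was not tested.

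**Figure D2:**
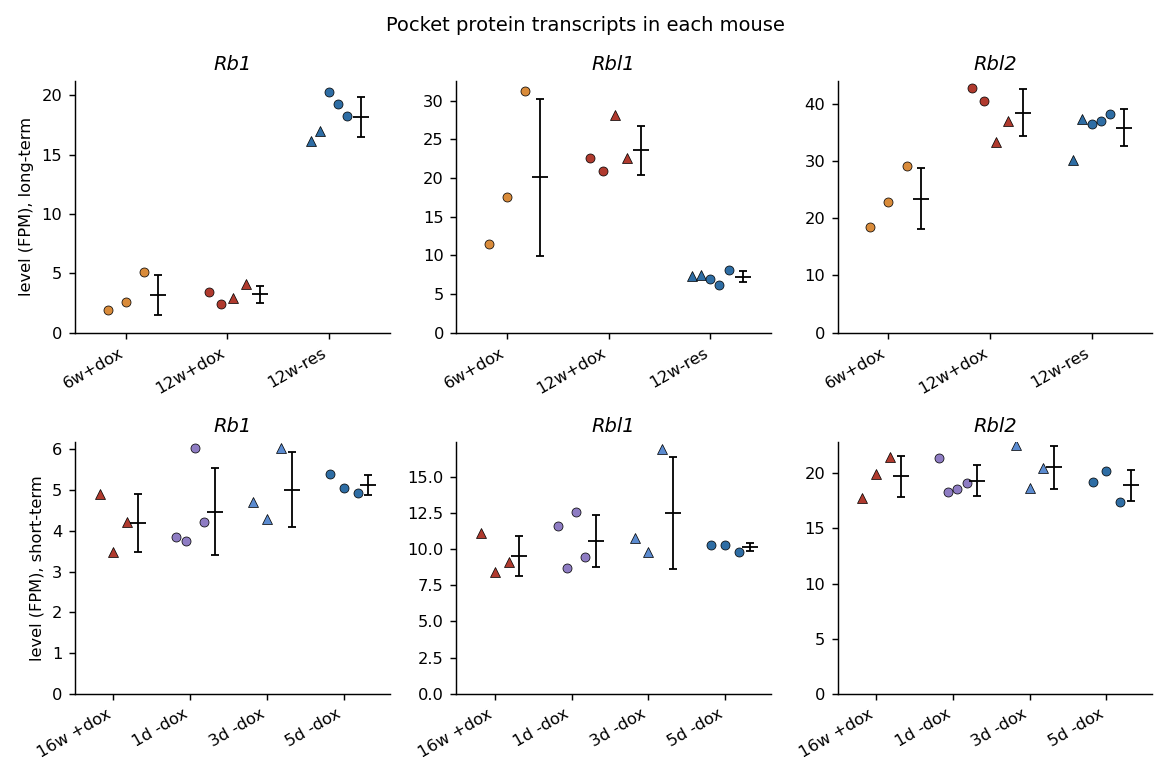
Levels of Rb1, Rbl1 and Rbl2 in FPM (y axes, linear from 0) in each mouse by group, long-term in the upper and short-term in the lower row, with circles for females, triangles for males and bars for mean ± SD. In 12w-res, Rb1 sits at 16.1 to 20.3 FPM above all dox-treated mice and Rbl1 at 6.20 to 8.07 FPM below them, while the short-term groups overlap except for Rb1 at 5d -dox against 16w +dox.

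To set the 3 pocket proteins on 1 scale, FPM were divided by the length of the longest GENCODE transcript in kilobases. Rb1 made up 3.98% to 6.66% of the summed level per kilobase at 12w+dox and 28.5% to 32.9% in 12w-res. The share of Rbl1 was 33.0% to 43.8% at 12w+dox and 9.85% to 13.6% in 12w-res, and that of Rbl2 was 51.4% to 63.1% and 55.2% to 59.4%. The sum itself was 13.4 ± 0.497 FPM per kilobase at 12w+dox (SD, n = 4) and 12.7 ± 0.913 in 12w-res (n = 5). On this size-factor scaling the sums overlapped, at 13.1 to 14.1 and 11.1 to 13.3. Under scaling by total reads, where the median of all genes shifted by -0.61, Rb1, Rbl1 and Rbl2 gave 1.74, -2.27 and -0.75. The sums were not computed on that scale, so their overlap is a statement about size-factor scaling only. Shares within a mouse do not depend on the scaling. At 6w+dox the sum was 6.49, 8.78 and 13.5 FPM per kilobase, and replicate 3, the highest, was also the highest of the 3 in each of the 3 genes. The ratio of Rbl1 to Rbl2 in FPM was 0.618 to 1.07 at 6w+dox, 0.516 to 0.841 at 12w+dox and 0.167 to 0.243 in 12w-res.

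**Figure D3:**
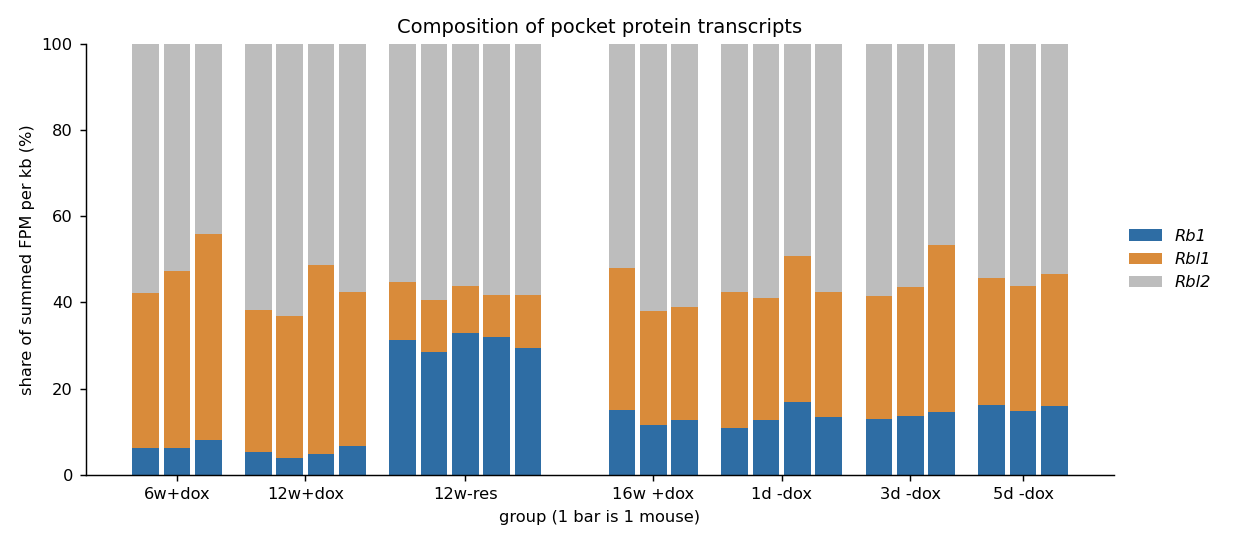
Shares of Rb1, Rbl1 and Rbl2 (y axis, percent of their summed FPM per kilobase) with 1 stacked bar for each mouse, grouped on the x axis. Rb1 takes 28.5% to 32.9% in the 5 mice of 12w-res and 3.98% to 8.13% in the long-term mice on dox. At 16w +dox, in the other library type, it takes 11.4% to 15.1%.

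Of the 5 genes of the MuvB core, Lin9 changed most. Lin9 (chromosome 1, 180641150 to 180690687, plus strand), which links MuvB to B-MYB, measured 8.62, 7.81, 9.15 and 8.82 FPM at 12w+dox and 3.12, 2.75, 3.09, 3.37 and 2.16 FPM in 12w-res. The groups were well apart, with a ratio of 2.97 between the means and a log2 fold change of -1.43 (SE 0.17, adjusted p = 2.1e-05, limma). At 6w+dox it measured 6.87, 7.71 and 5.17 FPM, below every 12w+dox mouse, though the difference of 0.38 did not pass (adjusted p = 0.169, limma). Against 6w+dox the log2 fold change in 12w-res was -1.06 (adjusted p = 6.0e-04, limma).

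Rbbp4 (chromosome 4, 129307100 to 129335370, minus strand), a histone chaperone that MuvB shares with several chromatin complexes, had the highest level per kilobase of transcript of the 10 genes. It measured 214, 260, 293 and 235 FPM at 12w+dox and 195, 155, 174, 180 and 148 FPM in 12w-res, which did not overlap. The log2 fold change was -0.55 (SE 0.16, adjusted p = 0.0132, limma). At 6w+dox the 3 mice had 340, 250 and 187 FPM and overlapped with both 12-week groups. Against 6w+dox, 12w-res was lower by -0.57 (adjusted p = 0.0199, limma), but without 6w+dox replicate 1 the value was -0.35 and did not pass (adjusted p = 0.112), and without 6w+dox replicate 2 it was -0.57 and did not pass (adjusted p = 0.0570). Exons on the opposite strand overlap 35.8% of the Rbbp4 transcript, and Sync, one of the genes they belong to, measured 0.118 to 1.48 FPM in the long-term mice.

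Lin52 (chromosome 12, 84451508 to 84531533, plus strand), the subunit through which p107, p130 and B-MYB are known to bind MuvB, measured 38.8, 42.3, 50.2 and 35.9 FPM at 12w+dox and 34.0, 31.9, 34.2, 29.5 and 29.3 FPM in 12w-res. The highest 12w-res mouse was just under the lowest 12w+dox mouse, and the log2 fold change was -0.38 (SE 0.11, adjusted p = 0.0142, limma). Lin54 (chromosome 5, 100442033 to 100500639, minus strand), the DNA-binding subunit, measured 16.5, 17.4, 19.3 and 16.9 FPM at 12w+dox and 13.7, 11.8, 13.9, 12.3 and 13.6 FPM in 12w-res. Its log2 fold change was -0.41 (SE 0.13, adjusted p = 0.0208, limma), which did not pass without 12w+dox replicate 3 (-0.37, adjusted p = 0.0573). Neither gene passed in the other long-term comparisons.

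Lin37 (chromosome 7, 30555441 to 30559721, minus strand), a subunit known to be needed for repression by DREAM, had the smallest difference between 12w-res and 12w+dox. It measured 12.2, 16.2, 15.8 and 14.1 FPM at 12w+dox and 17.8, 15, 13.6, 15.2 and 13.4 FPM in 12w-res, with a log2 fold change of 0.041 (95% interval -0.25 to 0.33), which became -0.60 under scaling by total reads. At 6w+dox it measured 20.7, 22.2 and 16.7 FPM, above each 12w+dox mouse. The difference of 12w+dox from 6w+dox was -0.43 and did not pass (adjusted p = 0.0591, limma), but did so without 6w+dox replicate 3 (-0.55, adjusted p = 0.0202) and with DESeq2 on the recovered reads (adjusted p = 0.0307). Between 12w-res and 6w+dox the value of -0.39 did not pass either (adjusted p = 0.0562, limma). It passed with DESeq2 on the recovered reads (adjusted p = 0.0347), with sex as a term (-0.45, adjusted p = 0.0422, limma) and under scaling by total reads (-0.71, adjusted p = 0.0030, limma). It also passed when 12w+dox replicate 1 (adjusted p = 0.0497), 12w-res replicate 1 (adjusted p = 0.0328) or 6w+dox replicate 3 (adjusted p = 0.0218) was left out.

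Foxm1 (chromosome 6, 128362994 to 128375886, plus strand), the activator that drives genes of G2 and mitosis, had the largest change of the 10 genes. It measured 23.8, 24.0, 23.1 and 25.9 FPM at 12w+dox and 3.02, 2.27, 4.46, 3.72 and 2.54 FPM in 12w-res. The mean fell 7.57 times, with a log2 fold change of -2.77 (SE 0.17, adjusted p = 4.5e-08, limma). At 6w+dox it measured 16.5, 20.4 and 16.4 FPM, below every 12w+dox mouse, with a difference of 0.45 that did not pass (adjusted p = 0.117, limma). Against 6w+dox the log2 fold change in 12w-res was -2.33 (adjusted p = 7.5e-07, limma).

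Mybl2 (chromosome 2, 163054327 to 163084688, plus strand), which encodes the MuvB partner B-MYB, measured 3.14, 4.75, 5.02 and 4.55 FPM at 12w+dox and 0.520, 1.00, 0.592, 0.945 and 1.60 FPM in 12w-res. The values in 12w-res rest on 10 to 29 reads per mouse, beside 90 to 163 at 12w+dox. The log2 fold change was -1.80 (SE 0.23, adjusted p = 5.2e-05, limma), and the ratio of the means was 4.68. The added 0.5 FPM weighs at this level, and a pseudocount of 0.1 or 1 kept the call. At 6w+dox Mybl2 measured 3.49, 3.34 and 4.80 FPM, which overlapped with 12w+dox, and against 6w+dox the 12w-res mice were lower by -1.65 on the log2 scale (adjusted p = 2.4e-04, limma).

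**Figure D4:**
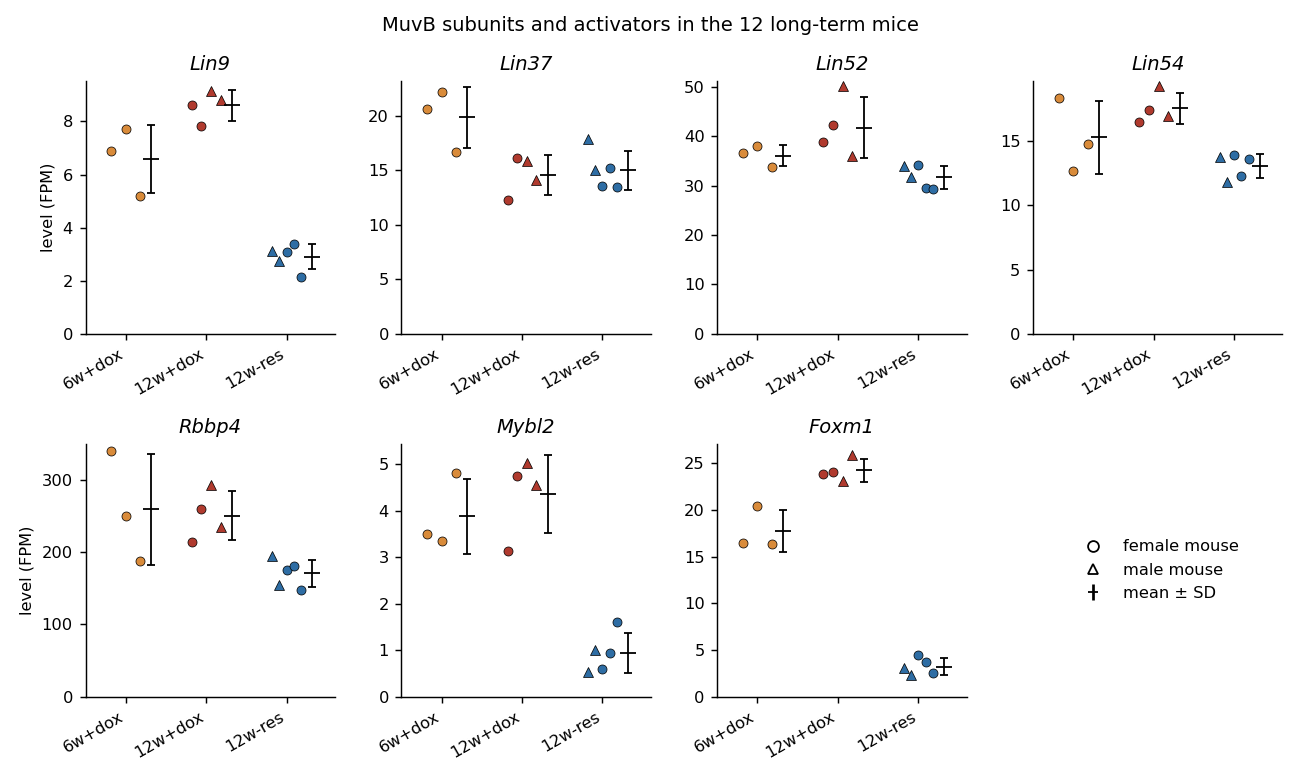
Levels in FPM (y axes, linear from 0) of the 5 MuvB subunits, Mybl2 and Foxm1 in each of the 12 long-term mice by group, with circles for females, triangles for males and bars for mean ± SD. Foxm1 lies at 2.27 to 4.46 FPM in 12w-res and at 23.1 to 25.9 FPM at 12w+dox, while Lin37 overlaps between these groups.

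Both sexes were present at 12w+dox and in 12w-res. The change of Rb1 was 2.54 in females (3 against 2 mice) and 2.11 in males (2 against 2), and that of Foxm1 was -2.61 and -3.0. Rbl1 gave -1.56 and -1.70, Lin9 -1.39 and -1.47, and Mybl2 -1.55 and -2.09, and none of these 5 genes overlapped between the groups in either sex. In limma's test of the difference between the sexes, 0 of the 10 genes passed, 0 had an unadjusted p under 0.05, and 13 of 15315 genes passed. The same test in edgeR on recovered reads gave 0 of the 10 and 13 genes. In females alone 5 of the 10 genes passed between 12w-res and 12w+dox, where Lin52, Lin54 and Rbbp4 did not (adjusted p = 0.0914, 0.261 and 0.175, limma).

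Compared with 6w+dox, 7 of the 10 genes passed in 12w-res, Rb1 and Rbl2 upward and Foxm1, Mybl2, Rbl1, Lin9 and Rbbp4 downward, beside 33.8% of all genes in either direction and 16.8% downward. An absolute log2 fold change over 1 left 5 of the 10 genes and 11.6% of all genes. All 12w-res mice lay on one side of all 6w+dox mice for 6 of the 10 genes and for 32.7% of all genes. Between 12w+dox and 6w+dox, where Rbl2 alone passed, 4 of the 10 genes (Rbl2, Lin9, Lin37 and Foxm1) separated all mice of the groups, as did 25.2% of all genes. These comparisons share their mice with that of 12w-res against 12w+dox. The 6w+dox mice were all female, so in both comparisons sex differs in part between the groups. In females alone 6 of the 10 genes passed in 12w-res against 6w+dox, without Rbbp4 (-0.59, adjusted p = 0.0589, limma). With sex as a term 8 passed, Lin37 included. Under scaling by total reads 1 gene was higher and 8 were lower, in place of 2 and 5.

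Ordered by level per kilobase at 12w+dox, the genes ran from Rbbp4 (56.9 ± 7.75 FPM per kilobase, SD, n = 4) through Lin52, Lin37, Rbl2, Foxm1, Rbl1, Lin54, Lin9 and Mybl2 to Rb1 (0.690 ± 0.150). The neighbours Foxm1 (5.21 ± 0.255) and Rbl1 (4.85 ± 0.645) lay within 1 SD of each other. In 12w-res, Rb1 (3.90 ± 0.357, n = 5) followed Rbl2 (7.30 ± 0.667) as the fifth gene, and Lin9 (0.917 ± 0.149), Foxm1 (0.688 ± 0.192) and Mybl2 (0.255 ± 0.118) were the lowest. These orders are those of the long-term libraries and of the longest transcripts. At 16w +dox (n = 3), Rbbp4 was again the highest, but Lin52 (1.76 ± 0.254) lay below Rbl2 (4.01 ± 0.377) and Lin37 (3.65 ± 0.151). There Mybl2 (0.310 ± 0.0814) was the lowest, below Rb1 (0.900 ± 0.152).

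The 8 other partners and regulators examined were E2f4, E2f5, Tfdp1, Tfdp2, Dyrk1a, Rbbp7, Mybl1 and Myb. Of these, 6 fell in 12w-res against 12w+dox and 0 rose, beside 18.3% of all genes passing downward. Their median log2 fold change was -0.43, beside -0.0040 over all genes. The largest changes were those of Myb (-1.82, adjusted p = 4.5e-05) and Mybl1 (-1.60, adjusted p = 4.8e-04), both related to Mybl2, and of Tfdp1 (-0.95, adjusted p = 3.5e-05, limma), which encodes the DP1 partner of E2F. E2f4 and E2f5, which encode the E2F proteins of DREAM, did not pass, at -0.061 (95% interval -0.31 to 0.19) and -0.036 (95% interval -0.40 to 0.33). Against 6w+dox, 4 of the 8 fell in 12w-res, beside 16.8% of all genes passing downward, and E2f4, E2f5, Dyrk1a and Tfdp2 did not pass. Between 12w+dox and 6w+dox, Tfdp2 rose by 0.55 (adjusted p = 0.0037) and Myb fell by 0.94 (adjusted p = 0.0217, limma).

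Genes that these complexes are known to control fell together in 12w-res, in lists chosen with earlier results of these data known. Of all genes, 18.3% passed downward against 12w+dox. All 20 G1/S genes fell against 12w+dox, with a median of -2.40, led by Rrm2 (-3.18, adjusted p = 1.0e-07), a subunit of ribonucleotide reductase, and by Mcm3 (-3.06, adjusted p = 5.6e-09) and Mcm5 (-3.03, adjusted p = 8.8e-09, limma), subunits of the replicative helicase. Pcna, the sliding clamp of DNA replication, averaged 134 ± 26.8 FPM at 12w+dox (SD, n = 4) and 23.4 ± 0.968 FPM in 12w-res (n = 5). All 21 G2/M genes fell, with a median of -3.34, led by Cenpf (-4.16, adjusted p = 8.8e-09), a kinetochore protein, Top2a (-3.98, adjusted p = 2.2e-09), the topoisomerase of mitotic chromosomes, and Nusap1 (-3.74, adjusted p = 3.8e-08, limma), a spindle protein. Mki67, the proliferation marker, averaged 110 ± 29.7 FPM at 12w+dox and 10.2 ± 1.76 FPM in 12w-res. Foxm1, at -2.77, lay between these medians, and Mybl2, Rbl1 and Lin9 changed less than either. Against 6w+dox, 19 of 20 G1/S and 21 of 21 G2/M genes fell in 12w-res, beside 16.8% of all genes passing downward. Orc1 was the G1/S gene that did not pass. Between 12w+dox and 6w+dox, Ccne2 rose by 1.17 (adjusted p = 0.0358, limma) and the other 19 G1/S and all 21 G2/M genes did not pass.

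By the smallest root-mean-square difference of centred log2 levels over the 12 long-term mice, among 13878 genes with a mean of at least 1 FPM, the genes most like Rb1 were Fam178b (0.318), Col18a1 (0.345) and Papss2 (0.350). Those most like Rbl1 were Arhgap33 (0.198), Zfp808 (0.204) and Lrrc16b (0.218), and those most like Rbl2 were Ttll7 (0.110), Ube3a (0.112) and Etnk1 (0.113). For Mybl2 they were Donson (0.173), Myh7b (0.231) and Ddx11 (0.260). For Foxm1 they included Fam111a (0.243) and Ezh2 (0.250).

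Markers of other cell types moved with these groups. The 8 markers of other anterior pituitary hormone cells (Gh, Prl, Tshb, Lhb, Fshb, Cga, Ghrhr and Pou1f1) summed to 58669 to 94156 FPM at 6w+dox, 1217 to 13053 at 12w+dox and 17320 to 34968 in 12w-res. In 12w-res against 12w+dox, Prl and Gh rose and the other 6 did not pass, beside 19.4% of all genes passing upward. Between 12w+dox and 6w+dox, 6 of the 8 passed, all lower, beside 12% of all genes passing downward, in the comparison in which Rbl2 rose. The 4 endothelial markers (Pecam1, Cdh5, Kdr and Emcn) summed to 58.3 to 81.8, 28.8 to 60.2 and 109 to 122 FPM in the same groups, and all 4 rose in 12w-res against 12w+dox, where 19.4% of all genes passed upward. So did all 5 markers of fibroblasts and pericytes (Col1a1, Col1a2, Dcn, Lum and Pdgfrb; 262 to 284, 64.9 to 260 and 426 to 968 FPM) and all 6 listed of 7 leukocyte markers (94.1 to 136, 96.7 to 126 and 145 to 216 FPM). The melanotroph and corticotroph markers summed to 109509 to 381210 FPM at 6w+dox, 96002 to 198293 at 12w+dox and 458751 to 581045 in 12w-res, sums that are almost all Pomc. Against 12w+dox, Pomc itself did not pass in 12w-res (1.86, SE 3.08), although the summed levels of these groups did not overlap. The SE draws on a variance trend over all genes, so it does not measure the spread of Pomc between the mice alone. In the same comparison Pcsk1 (1.89) and Pcsk2 (1.37) rose, Pax7 fell (-0.38, adjusted p = 0.0453, limma) and Tbx19 did not pass (-0.14). The neural lobe markers Avp and Oxt summed to 32.3 to 103, 1.66 to 3.91 and 0.951 to 3.69 FPM. No marker listed was at 0 throughout a group. The part of these cells in the changes of the 10 genes was not tested.

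In the short-term experiment the reporter followed dox withdrawal. Gfp, listed as GFP, measured 1360, 1025 and 1354 FPM at 16w +dox, 741, 310.0, 702 and 670 FPM at 1d -dox, 113, 171 and 80.7 FPM at 3d -dox and 10.5, 15.2 and 9.34 FPM at 5d -dox. Relative to 16w +dox, the change was -3.41 on the log2 scale at 3d -dox (adjusted p = 3.3e-04, limma) and -6.69 at 5d -dox (adjusted p = 3.8e-08, limma). At 1d -dox it was -1.11 and did not pass (adjusted p = 0.129, limma), though all 1d -dox mice lay below all 16w +dox mice. In 11.2% of all genes these 2 groups did not overlap. The exact two-sided permutation p was 0.0571, the smallest that 4 against 3 mice allow. The 1d and 5d -dox mice also differ from the 16w +dox mice in sex.

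None of the 10 genes passed at 1d, 3d or 5d -dox against 16w +dox or at 5d against 1d -dox (0 of 10 in each by limma, DESeq2 and edgeR, and 0 at an unadjusted p under 0.05 in limma). Few genes passed at all in these comparisons, 0.10%, 0.358%, 0.509% and 0.0143% of 13958 genes, respectively. At an unadjusted p under 0.05 there were 1823, 2323, 1889 and 883 genes. The fitted log2 fold changes of the 10 genes ranged from -0.28 to 0.43 after 1 day off dox, from -0.28 to 0.34 after 3 days and from -0.16 to 0.33 after 5 days.

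Rb1 measured 4.89, 3.47 and 4.21 FPM at 16w +dox, 3.84, 3.76, 6.03 and 4.21 FPM at 1d -dox, 4.71, 4.28 and 6.03 FPM at 3d -dox and 5.38, 5.04 and 4.92 FPM at 5d -dox, from 123 to 293 reads. The 5d -dox mice were above all 16w +dox mice, which differ from them in sex, and this separation was seen in 19.3% of all genes. The log2 fold change was 0.27 with a 95% interval of -0.10 to 0.64, and the exact two-sided permutation p was 0.1, the smallest that 3 against 3 mice allow. Within females, 5d against 1d -dox gave 0.20 (95% interval -0.15 to 0.55), and within males, 3d -dox against 16w +dox gave 0.23 (95% interval -0.14 to 0.60). All these intervals lie below 1, which is a doubling on this scale.

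Rbl1 measured 11.1, 8.39 and 9.14 FPM at 16w +dox, 11.6, 8.67, 12.5 and 9.45 FPM at 1d -dox, 10.8, 9.77 and 16.9 FPM at 3d -dox and 10.3, 10.3 and 9.82 FPM at 5d -dox. The groups overlapped, and the log2 fold change at 5d -dox was 0.093 (95% interval -0.29 to 0.47). Rbl2 lay between 17.4 and 22.5 FPM in all 13 mice. Foxm1 measured 10.4, 7.72 and 11.6 FPM at 16w +dox and 10.6, 10.2 and 11.4 FPM at 5d -dox, a log2 fold change of 0.12 (95% interval -0.18 to 0.43). Mybl2 measured 1.42, 0.83 and 1.15 FPM at 16w +dox and 1.29, 1.53 and 1.80 FPM at 5d -dox, from 31 to 64 reads, a log2 fold change of 0.33 (95% interval -0.16 to 0.82). For Rbl1 and Foxm1 the lower ends of the 5d -dox intervals lie above -1, so that falls as large as their fitted long-term ones were outside these intervals. For Mybl2 the 16w +dox levels are so near the added 0.5 FPM that a fall as large as its long-term one could not occur on this scale. The experiments also differ in library type.

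Lin37 was the one gene of the 10 whose 3d -dox mice, at 3.87, 4.14 and 3.58 FPM, did not overlap with the 16w +dox mice, at 4.87, 4.94 and 4.57 FPM, a separation seen in 21.6% of all genes. The log2 fold change was -0.28 and did not pass (adjusted p = 0.336, limma). At 5d -dox its values of 3.84, 3.92 and 5.35 FPM overlapped with those at 16w +dox. Lin9, Lin52, Lin54 and Rbbp4 overlapped between 16w +dox and each group off dox, with ranges over the 13 mice of 1.77 to 3.77, 3.06 to 4.64, 8.68 to 11.8 and 42.8 to 49.5 FPM.

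**Figure D5:**
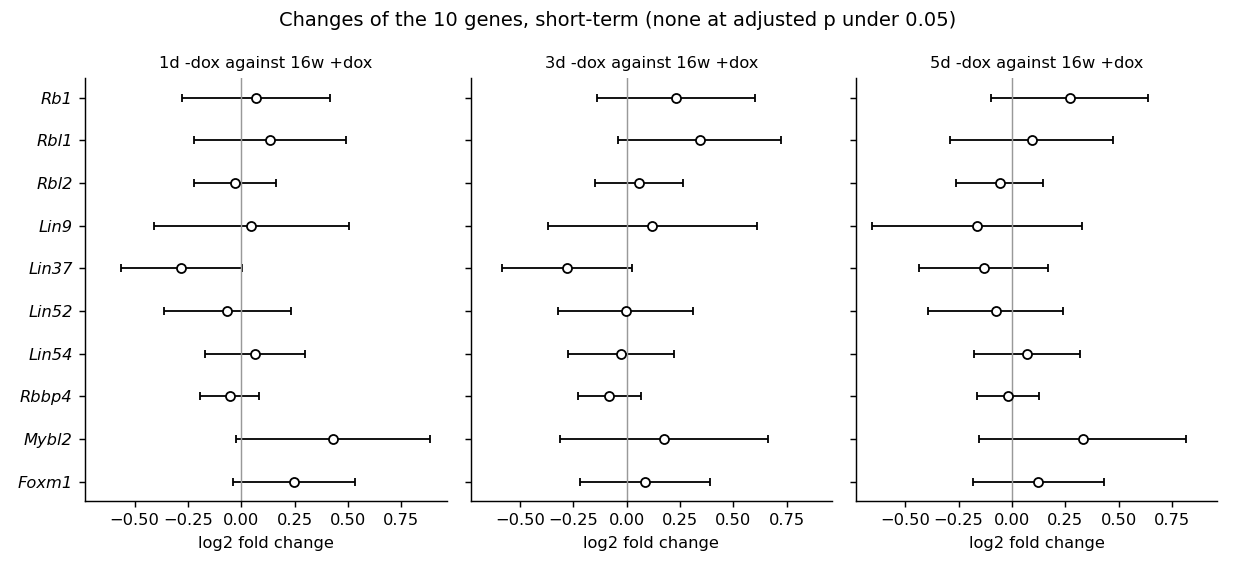
Log2 fold changes (x axis) of the 10 genes (y axis) at 1, 3 and 5 days without dox against 16w +dox, with limma estimates as open points, since none had an adjusted p under 0.05, and bars for 95% confidence intervals. The points lie between -0.28 and 0.43, and the scale is narrower than that of the long-term plot.

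Of the lists around the 10 genes, 0 of 7 tested partners and regulators, 0 of 19 tested G1/S genes and 0 of 21 G2/M genes passed in any of the 4 short-term comparisons by limma. At an unadjusted p under 0.05, 11 of the 19 G1/S genes differed from 16w +dox after 1 day, 5 after 3 days and 2 after 5 days. Among all 13958 genes tested, 1823, 2323 and 1889 did so, in the same order. Mice off dox for 1 or 5 days were female and the 16w +dox mice male, so sex and withdrawal are not separable in those comparisons. The G1/S genes had median log2 fold changes of 0.32, 0.20 and 0.18 against 16w +dox. The G2/M medians were 0.23, 0.083 and -0.0070. Mki67 averaged 107 ± 21.3 FPM (SD, n = 3) at 16w +dox and 109 ± 9.54 FPM (n = 3) at 5d -dox, and Pcna 24.7 ± 3.85 and 28.5 ± 2.34 FPM. The summed markers of other hormone cells were 198 to 239 FPM at 16w +dox, 23.0 to 106 at 1d -dox, 167 to 885 at 3d -dox and 25.6 to 102 at 5d -dox, and those of endothelium 14.7 to 28.0, 7.95 to 11.2, 15.7 to 25.6 and 6.19 to 9.48 FPM. In both lists, the 1d and 5d -dox mice, which were female, lay below the 16w +dox mice, and the effects of sex and of dox withdrawal cannot be told apart.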

How the data were processed

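The pituitary libraries of 25 mice were grouped by their labels (title, treatment and sex). The authors mapped paired reads to mm10 with STAR, counted them on RefSeq genes, kept genes with at least 10 reads in over 50% of the mice of a condition and deposited a signal in FPM that was scaled by DESeq2 size factors. The counting tool and the use of strand are not given in the sources used here. Every deposited value (100%) came out as a whole number of reads within 0.1 read, and these recovered reads gave depths and count tests. The 4 lines of the short-term table that name no gene held 68.8% to 75.0% of a library and stayed out, as did 2 nameless lines of the long-term table.

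The main test was limma 3.58.1 (R 4.3.3) with a variance trend, run on log2(FPM + 0.5) for all groups of a table in 1 fit, and Benjamini-Hochberg adjustment over 15315 and 13958 genes with at least 10 reads in over 50% of the mice of a group. A fold change on this scale understates that of low genes. Alternatives were DESeq2 1.42.0 and edgeR 4.0.16 (quasi-likelihood test) on recovered reads, TMM or total scaling, pseudocounts of 0.1 and 1, other filters, a fit of 2 groups alone, a block for the replicate number, a sex term, females only, an absolute log2 fold change over 1, and each mouse left out in turn. Limma, edgeR and DESeq2 were tested on simulated reads. Named are the 10 genes, Gfp, Mki67 and Pcna, up to 3 passing genes of each pathway list with the largest change in a comparison, and the 3 genes most like Rb1, Rbl1, Rbl2, Mybl2 and Foxm1. A result that this rule would name is not reported here. Other genes were named after their values were seen, as was the motif ending in G chosen. The genes, lists and markers were chosen with earlier results of these data known. Gene positions come from RefSeq (GRCm38.p6) and transcripts from GENCODE vM21.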

Additional observations from a re-analysis of the deposited data

Results flagged for a closer look

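In groups of 4 or 5 mice, 30 sets of values of the 10 genes were examined for a single mouse far from the others, and 2 were found, where chance gives about 1 in 20. Rbl2 measured 30.2 FPM in 12w-res replicate 1, while the other 4 mice of that group lay between 36.6 and 38.2 FPM. Lin37 measured 4.76 FPM in 1d -dox replicate 2, while the other 3 mice lay between 3.51 and 3.69 FPM. No difference between the sexes in the response of the 10 genes passed the test.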

How the results depend on the processing

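Under the alternatives other than leaving out 1 mouse, 726 values of single genes kept their direction and side of the threshold. Of the rest, 11 came to pass, 9 no longer passed, 1 reversed and 13 changed sign without passing in either fit. Without 1 mouse these counts were 5, 3, 0 and 42, and 830 values held. The number of genes passing ranged from 1 to 3 (12w+dox against 6w+dox), 7 to 8 (12w-res against 12w+dox) and 6 to 8 (12w-res against 6w+dox) when 1 mouse was left out, and was 0 in every short-term comparison and alternative. Without 6w+dox replicate 3 it was 3 for 12w+dox against 6w+dox. With DESeq2 that comparison gave 2, with totals of recovered reads 5 (also Lin9, Lin52, Lin54 and Foxm1), and with an absolute log2 fold change over 1 it gave 0. For 12w-res against 12w+dox, females only and the fold condition each gave 5. Scaling by totals moved the median of all genes by 0.29 (12w+dox against 6w+dox), -0.61 (12w-res against 12w+dox), -0.33 (12w-res against 6w+dox) and 0.14 (3d -dox against 16w +dox). Under it Lin37 in 12w-res against 12w+dox turned from 0.041 to -0.60 and passed, which is 0.011 relative to the shift, and Rbl2 passed at -0.75, which is -0.14 relative to it. Replicate numbers did not pair the mice, since 1 of 10 long-term and 3 of 18 short-term same-numbered pairs had a correlation of deviations over 0.1. With the replicate number as a block, 5 genes passed in 12w-res against 12w+dox, without Lin52, Lin54 and Rbbp4, and 6 in 12w-res against 6w+dox, without Rbbp4 (adjusted p = 0.103). The causes of these differences were not tested. Depth limits Mybl2 most.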
